A study of Mus musculus with 9 samples.

Results

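The regions described here are 269 exon-level probe sets, of 154736 on the deposited exon-array table, whose signal relative to the rest of their gene set the hair follicle (HF) of mouse tail skin apart from both other epidermal compartments. The table came from 9 arrays: 3 of HF, 3 of sebaceous gland (SG) and 3 of interfollicular epidermis (IFE). All 9 samples were wild-type female mice of C57BL6/CBA background, and no group carried a treatment or an altered allele. Each sample pooled pieces of 1 compartment dissected by hand from tail epidermis, so the cells are the mixture that the dissection took, and the labels give the animals only as adults matched for age. The labels call the 3 arrays of a compartment biological replicates and do not tie them to animals, so every spread and p-value below measures the differences between these 3 pools.

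A probe set is a small group of array probes that reads about 1 exon or part of an exon. Its index is its log2 signal minus the median log2 signal of all probe sets of the same gene on the same array, so an index of 1 means a reading 2-fold above the middle of the gene. Genes with 6 or more probe sets and a gene median of log2 7 or more in all 3 compartment means were kept, which left 89440 probe sets in 6016 genes. Members were selected on the measured index: a probe set was kept where its mean HF index lay 1 or more above both the SG and the IFE means, or 1 or more below both, and where its 3 HF arrays all lay beyond the other 6. The 269 members lie in 219 genes. In 185 of them, in 165 genes, the HF index was higher (0.207% of the probe sets left by the gene filters), and in 84 of them, in 69 genes, it was lower (0.0939%). These percentages are what the selection itself gives, and nothing is read from them. The HF index and every other HF difference of the members are therefore descriptions without a test. The same selection gave 818 probe sets for SG and 641 for IFE.

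A gene can give rise to several RNAs when transcription starts at another promoter, when an exon is spliced in or skipped, or when the RNA ends at another site. Splicing is steered by RNA-binding proteins such as the ESRP proteins, which set epithelial splice forms, and the MBNL, RBFOX and PTBP families. The hair follicle is the skin appendage in which keratinocytes build the hair shaft and the inner root sheath, and its outer layers adjoin the sebaceous gland. An exon array records such differences only as a departure of a probe set from the rest of its gene.

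Lists for hair shaft and inner root sheath, sebocytes and suprabasal IFE averaged highest where the titles put them. The array file name in each description, however, names another compartment for all 9 arrays. The 13 measured genes of 20 on a list for hair shaft and inner root sheath averaged log2 11.96, 11.38 and 12.03 on HF replicates 1 to 3. They averaged 6.69, 6.73 and 6.73 in IFE, and 7.19, 7.44 and 10.05 in SG. SG replicate 3 therefore carried hair keratin signal far above the other SG arrays, and HF replicate 2 had the lowest value of the HF arrays. Sebocyte genes averaged 10.5 in SG, 8.54 in HF and 7.36 in IFE, with SG replicate 3 lowest in SG at 10.17. Suprabasal genes averaged 11.75 in IFE, 11.03 in HF and 10.91 in SG. A resting follicle list did not part HF, at 8.87, from SG, at 8.86, with IFE at 7.56. Single genes went against their list. Hoxc13 of the hair list read 9.15 in HF and 9.33 in IFE. Krt77 of the suprabasal list read 6.81 in IFE, 8.30 in HF and 8.85 in SG. Muscle markers averaged 7.29 in HF, 7.08 in SG and 6.95 in IFE, and the defining gene Des read 6.97, 7.02 and 7.04 and Myh11 7.35, 7.33 and 7.39, while Acta2 read 7.14, 5.92 and 5.18. The part of Acta2-expressing cells in the results was not tested. Fibroblast, melanocyte, Langerhans cell, T cell, papilla and vessel or nerve lists averaged at most 8.05 in any compartment, near the array medians of 7.46 to 7.87. Single markers on them stood higher: Bmp4 read 9.41 in HF, 6.07 in SG and 6.69 in IFE, Dcn 8.98, 8.33 and 7.29, Sparc 9.04, 10.52 and 9.77, and Thy1 7.01, 8.94 and 9.39. Their part in the results was not tested. In bulk pieces such as these, fewer cells of a type and less RNA per cell cannot be told apart.

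SG replicate 3 and HF replicate 2 also bear on who is a member. The other array nearest to the HF range was SG replicate 3 for 127 of the 269 members, against 25 to 39 for each of the remaining 5. The HF array nearest to the others was HF replicate 2 for 146 members, against 64 and 59. Without HF replicate 2 the selection gave 468 probe sets, of which 238 were among the 269. Without HF replicate 2 and SG replicate 3 together it gave 524, including 215 of the 269. A core of 121 members, 89 higher and 32 lower, was selected again whichever of the 9 arrays was left out. Leaving out an array cannot undo the separation of the arrays. Only the bound on the difference or on the gene median could remove a member, so the core is no separate support.

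Members reached the selection in different ways. Of the 269, 151 were probe sets that differed between HF and the mean of SG and IFE by log2 1 or more while their gene differed by under 0.5. Another 34 were the converse: the gene differed by 1 or more and the probe set by under 0.5, so the probe set stood still while the median of its gene moved. In 22 the probe set and the gene moved in opposite directions by 0.5 or more each, and 62 fell in none of these classes. The bounds of the classes were chosen after the values were seen. The mix depended on direction. Among the higher members 121 of 185 had a flat gene and 7 a flat probe set, whereas among the lower members 30 of 84 had a flat gene and 27 a flat probe set. The median probe set log2 signal of the higher members was 9.48 in HF, 7.84 in SG and 7.67 in IFE, with gene medians of 7.87, 7.74 and 7.78. The lower members read 7.16, 7.58 and 7.65, with gene medians of 8.80, 7.69 and 7.76. A higher index thus mostly meant a brighter probe set in a gene that stayed level, and a lower index about as often meant a gene that rose around a probe set that did not. The genes of the 121 higher members with a flat gene had medians of 7.67, 7.79 and 7.75 on the HF arrays. The array medians there were 7.61, 7.72 and 7.69. No detection calls were used, so how far such genes were expressed is unknown. Whether either kind of reading reflects a difference in exon use was not tested.

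**Figure D1:**
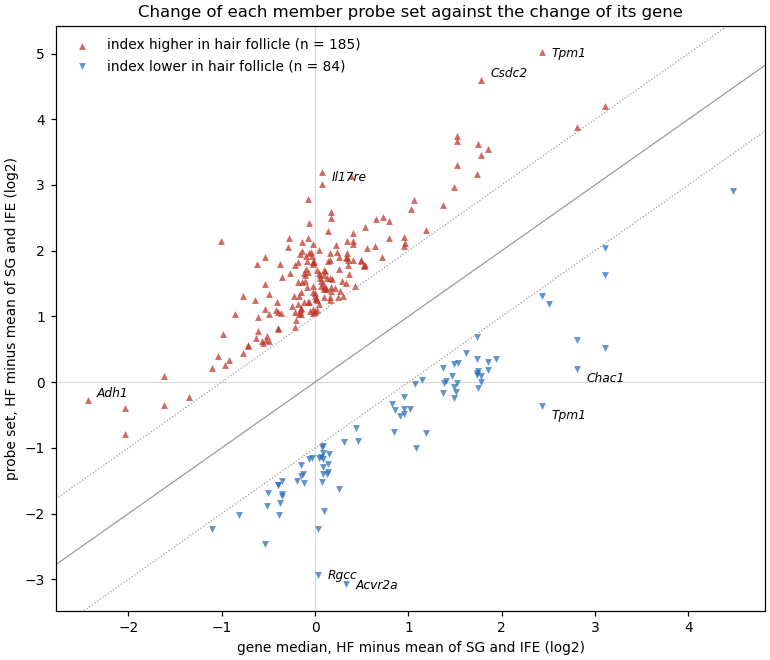
Difference of each of the 269 member probe sets between hair follicle and the mean of the other compartments (y axis, log2) against the same difference of its gene median (x axis, log2). The solid line marks equal change and the dotted lines a departure of 1 either way. Red points crowd at a gene change near 0 with a probe set change of 1 to 3, and blue points split between a group at gene change near 0 and a group at probe set change near 0 whose genes rose by 1 to 3.

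The gene was 1 or more higher in HF for 37 of the 84 lower members, and since the index subtracts the gene median, the selection itself favours such genes. For the higher members the gene was 1 or more higher in 16 of 185 and 1 or more lower in 9, and it lay within 0.5 in 126. Of the higher members, 75 of 185 (40.5%) read log2 10 or more in HF, a level that the selection for a high HF index favours. Under log2 6 in every compartment lay 11 of the 185 higher and 10 of the 84 lower members. Among the 89440 probe sets left by the gene filters 2828 did, a smaller share than in either direction. Most differences were close to the bound: the smaller of the differences from SG and IFE had a median of 1.26 and a maximum of 2.81 for higher members, and 1.22 and 3.19 for lower members. Just inside the bound stood members in Slc49a4, Pax8 and Oplah at 1.00, and just outside it probe sets in Wipi1 and Nampt at 0.996 and in Insig2 at 0.995.

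The first group of higher members comprised bright probe sets in genes that hardly changed. Il17re, which encodes a receptor subunit for interleukin 17C, ranked first of the named higher members by the smaller of its differences from SG and IFE. Its member read 11.95, 11.96 and 12.07 on the HF arrays, 8.50, 8.80 and 10.37 on the SG arrays, and 8.96, 8.35 and 8.92 on the IFE arrays. All 3 HF arrays lay above the rest, and SG replicate 3 lay between HF and the other SG arrays. The gene median meanwhile was 7.56 in HF, 7.53 in SG and 7.43 in IFE, so the middle of the gene showed no comparable rise. The mean HF index exceeded that of SG by 2.74 and that of IFE by 3.12 (no test, since this difference selected the probe set).

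Grin2d, encoding a subunit of the NMDA-type glutamate receptor, showed the same shape, with 11.88, 11.03 and 11.67 in HF, 8.68, 8.50 and 10.07 in SG, and 7.37, 7.58 and 7.75 in IFE. In IFE this probe set was level with its gene median of 7.50, and in HF it stood 3.33 to 4.21 above it. Syn1, encoding synapsin, a synaptic vesicle protein, read 12.14, 12.10 and 12.20 in HF, 9.14, 9.68 and 11.26 in SG, and 9.73, 10.02 and 9.85 in IFE, over a gene median of 7.84 to 8.35. Here the SG replicate 3 value came within 1 log2 unit of HF, while the other SG arrays lay below IFE. Rhbdl3, which encodes a rhomboid-family membrane protein, read 10.96, 10.93 and 11.02 in HF, 7.61, 7.50 and 9.79 in SG, and 7.20, 7.51 and 7.34 in IFE. The HF readings of these probe sets differed little among the 3 arrays, with SDs from 0.0469 for Rhbdl3 to 0.438 for Grin2d.

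The pattern recurred in genes with unrelated roles. Il17rc, the gene of a receptor subunit for interleukins 17A and 17F, read 10.65, 10.69 and 10.88 in HF against 8.00, 8.02 and 9.71 in SG and 8.49, 8.78 and 8.65 in IFE. Kif12, a kinesin motor gene, read 10.23, 10.29 and 10.27 against 7.75, 7.71 and 9.06 in SG and 8.16, 8.29 and 7.39 in IFE. Depdc5, a subunit of the complex that restrains mTORC1, read 11.46, 11.34 and 11.44 against 8.37, 8.51 and 10.36 in SG and 9.03, 9.23 and 9.18 in IFE. In these 3 genes the gene median stayed between 7.25 and 7.85 in every compartment. Fbxo22, a substrate receptor of a ubiquitin ligase, read 11.43, 10.92 and 11.33 in HF, 8.49, 8.80 and 9.86 in SG, and 9.46, 9.16 and 9.23 in IFE. Cops7a, a subunit of the COP9 signalosome, read 11.39, 10.26 and 11.10 in HF, 7.96, 8.40 and 9.77 in SG, and 8.55, 8.08 and 8.22 in IFE. For Cops7a, HF replicate 2 came within 0.5 of SG replicate 3, so its groups were separated narrowly.

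In other members of high rank the gene fell while the probe set rose. Ppp2r1a encodes a scaffold subunit of protein phosphatase 2A, and its member read 12.06, 12.23 and 12.16 in HF, 9.42, 9.59 and 11.11 in SG, and 10.67, 10.18 and 10.48 in IFE. The gene median ran the other way, at 8.97 in HF, 9.19 in SG and 9.83 in IFE. Polr3gl, a subunit gene of RNA polymerase III, read 11.80, 11.83 and 11.82 in HF, 9.69, 9.67 and 10.61 in SG, and 10.14, 9.92 and 10.08 in IFE, with gene medians of 7.18, 8.07 and 7.53. Dram1, a lysosomal membrane gene, had 2 higher members in 12 probe sets, and the gene median was 7.29 in HF against 8.12 in SG and 8.00 in IFE. Dlg2, a synaptic scaffold gene, read 5.49, 7.62 and 7.81 in HF, 4.14, 4.42 and 5.82 in SG, and 5.74, 5.13 and 3.70 in IFE, while its gene median was 7.22, 7.35 and 9.10. The Dlg2 probe set itself overlapped between groups, since HF replicate 1 lay below SG replicate 3 and IFE replicate 1. The groups were separated in the index alone.

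Nmnat2, an enzyme gene of NAD synthesis, had 2 higher members among 13 probe sets. The brighter read 9.15, 8.69 and 9.32 in HF, 5.44, 6.65 and 8.75 in SG, and 7.17, 5.49 and 5.80 in IFE, and the dimmer 6.81, 5.83 and 7.45, 3.37, 4.13 and 5.04, and 3.15, 4.84 and 4.11. In the brighter one SG replicate 3 exceeded HF replicate 2 in log2 signal, so only the index separated the groups there. The highest-ranked higher member lay in a gene model without an official name, at 4.33 to 5.52 in HF and 1.40 to 2.85 elsewhere, where the array signal was far below the gene median.

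Adh1 is the clearest higher member of the converse kind. It encodes an alcohol dehydrogenase that also oxidises retinol, and its gene median was 9.12 in HF, 11.70 in SG and 11.40 in IFE. The member probe set read 6.80, 7.29 and 7.58 in HF, 7.62, 7.68 and 7.81 in SG, and 7.13, 7.54 and 7.19 in IFE. The probe set thus hardly varied and its groups overlapped, and the index rose in HF because the gene median was lower there.

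**Figure D2:**
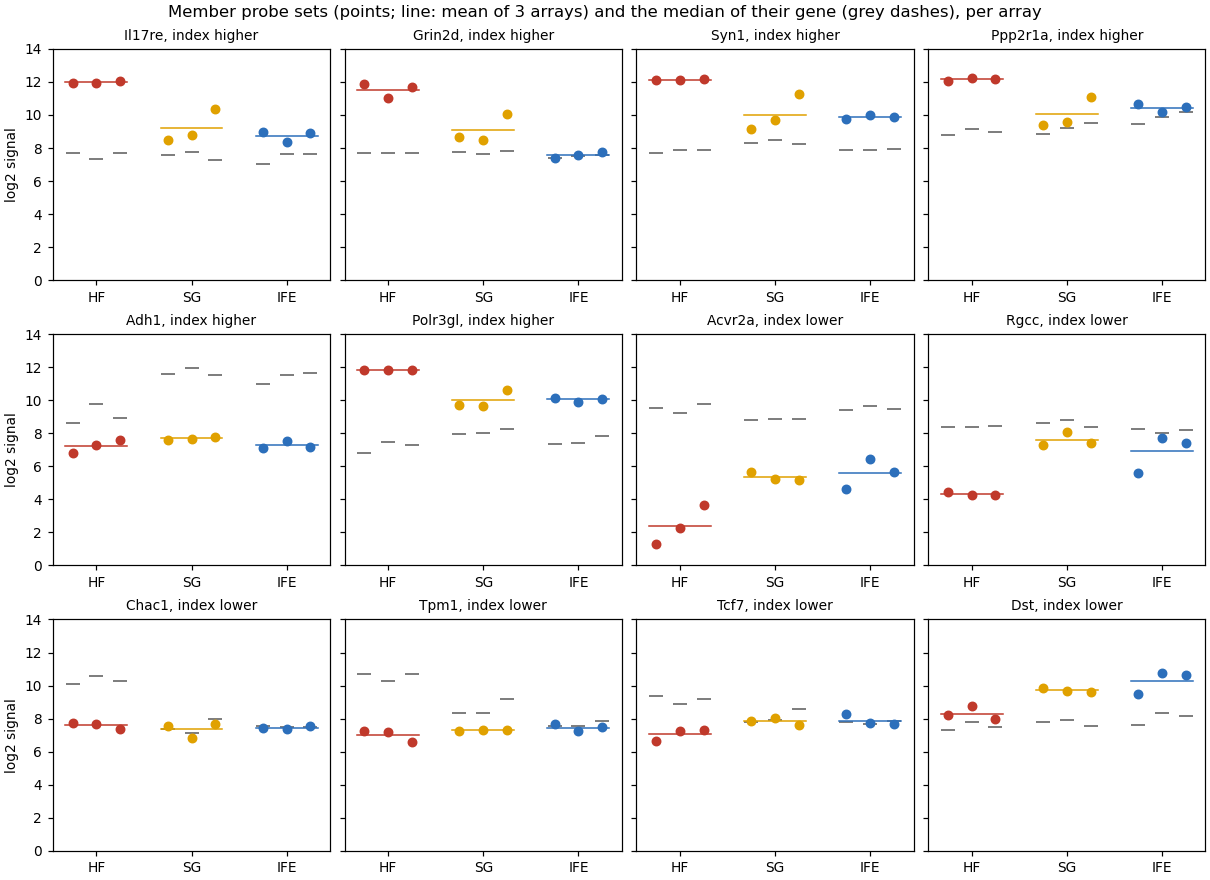
Log2 signal of 12 named member probe sets on each array (points, with a line at the mean of 3 arrays) and the median of their gene on the same array (grey dashes), for hair follicle (HF), sebaceous gland (SG) and interfollicular epidermis (IFE). In Il17re, Grin2d, Syn1 and Polr3gl the points rise in HF while the dashes stay low, with SG replicate 3 highest of the SG points, and in Adh1, Chac1 and Tpm1 the dashes move while the points stay near 7.

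SG replicate 3 ranked highest of the SG arrays in 140 of the 185 higher members (75.7%), against 44.7% of the probe sets left by the gene filters. For the 121 higher members with a flat gene the count was 99 (81.8%), and their median probe set signal was 7.79, 8.02 and 8.75 in SG replicates 1 to 3, 9.67, 9.54 and 9.70 in HF, and 8.03, 7.95 and 8.09 in IFE. SG replicate 3 thus stood between the other SG arrays and HF, by a median of 0.67 above the mean of the other SG arrays over these members and of 0.16 over all probe sets left by the gene filters. The list for hair shaft and inner root sheath also placed SG replicate 3, at 10.05, between HF and the other SG arrays. The order of the remaining arrays differed. On that list IFE, at 6.69 to 6.73, lay below SG replicates 1 and 2 at 7.19 and 7.44, which was not so for these members. In the lower members SG replicate 3 was lowest of the SG arrays in 32 of 84 (38.1%), against 23.8% of the probe sets left by the gene filters, and in 14 of the 30 with a flat gene (46.7%). These shares are descriptions, and the part of hair follicle material in the SG replicate 3 readings was not tested.

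**Figure D3:**
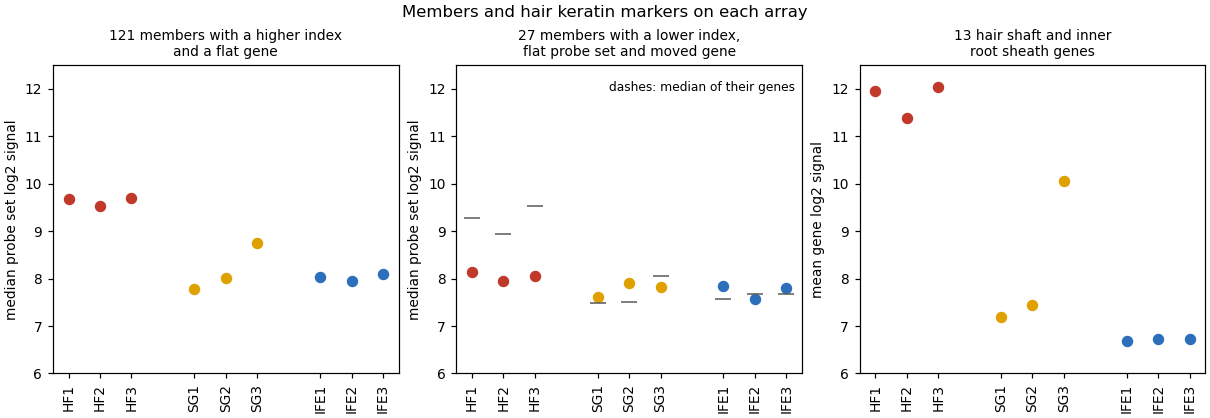
Median log2 signal on each array of the 121 higher-index members with a flat gene (left), of the 27 lower-index members with a flat probe set and a moved gene (middle, dashes for the median of their genes), and mean log2 signal of the 13 measured genes for the hair shaft and its inner sheath (right). SG replicate 3 stands between HF and the other SG arrays on the left at 8.75 and on the right at 10.05, while the middle points stay between 7.56 and 8.13 as their genes rise in HF.

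In a first group of lower members the signal of the probe set itself was lower in HF. Acvr2a, a type II receptor gene for activins, ranked first of the lower members. Its member read 1.32, 2.26 and 3.64 in HF, 5.68, 5.26 and 5.19 in SG, and 4.64, 6.47 and 5.65 in IFE, in a gene whose median was 9.51, 8.85 and 9.50. The HF arrays were lowest and did not overlap the others, but in SG and IFE too the probe set lay far below its gene, at an index between -4.75 and -3.11. Ern1, the gene of the stress sensor IRE1 of the endoplasmic reticulum, read 3.86, 4.60 and 5.04 in HF, 6.28, 5.52 and 6.37 in SG, and 5.77, 6.35 and 6.42 in IFE, with a gene median of 7.34 to 7.85. Dsg2, a desmosomal cadherin gene, read 5.13, 5.95 and 3.64 in HF, 7.06, 6.03 and 5.83 in SG, and 8.02, 7.55 and 6.74 in IFE, with a gene median of 7.72 to 7.88. HF replicate 2 of Dsg2 lay above SG replicate 3 in log2 signal, so only the index separated those arrays. Pygl, the liver-type glycogen phosphorylase gene, read 6.07, 7.76 and 5.82 in HF, 8.83, 9.20 and 8.09 in SG, and 8.96, 9.51 and 9.45 in IFE.

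Rgcc, a regulator of the cell cycle, had 2 lower members among only 6 probe sets. The first read 4.45, 4.27 and 4.28 in HF, 7.30, 8.10 and 7.42 in SG, and 5.62, 7.74 and 7.40 in IFE. The second read 5.48, 6.12 and 5.79 in HF, 8.17, 8.72 and 8.23 in SG, and 6.82, 8.00 and 8.21 in IFE. Both were lowest on all 3 HF arrays, and IFE replicate 1 was the lowest array outside HF in both. The other 4 probe sets of the gene read 8.30 to 9.97 in HF, 8.54 to 10.25 in SG and 7.91 to 9.92 in IFE, so part of the gene was low in HF while the remainder was close to the other compartments.

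Another set of lower members held still in genes that rose. Chac1 encodes an enzyme that degrades glutathione, and its gene median was 10.31 ± 0.24 in HF, 7.50 ± 0.46 in SG and 7.51 ± 0.06 in IFE (SD, n = 3). Of its 6 probe sets, 4 were 1 or more higher in HF. A member read 7.76, 7.65 and 7.34 in HF, 7.55, 6.81 and 7.66 in SG, and 7.41, 7.39 and 7.53 in IFE. It did not follow the other probe sets of its gene upward in HF. A second lower member was bright everywhere, at 10.15 in HF, 9.45 in SG and 9.57 in IFE, and the remaining member had a higher index, at 11.43, 7.52 and 7.57. Tpm1, Fhod3 and Nav2, described with the genes that hold several members, had lower members of this kind too, as did Rab3ip, which encodes an exchange factor for Rab8, Sema6a, a semaphorin gene, and St14, the gene of the protease matriptase. The members of Rab3ip, Sema6a and St14 read 8.18, 8.73 and 9.03 in HF and moved by under 0.5 from the mean of the other compartments. Over the 27 lower members of this kind the median probe set signal ran from 7.56 to 8.13 across the 9 arrays, while the median of their genes was 8.94 to 9.53 in HF and 7.48 to 8.05 elsewhere. Adgrl2, the gene of an adhesion receptor of the latrophilin family, held 1 of the 4 lower members in which the gene rose and the probe set fell. It read 5.67, 4.72 and 5.10 in HF, 5.97, 5.01 and 6.11 in SG, and 6.06, 6.06 and 6.30 in IFE, with overlap between HF and SG, while the gene median was 9.33, 8.24 and 8.74.

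Some genes held several members. Whereas 185 genes had 1 member, 34 genes held 2 or more and 84 members between them, and 15 genes held members of both directions. A member shares its reference with the other members of its gene, so these are not independent readings. Tpm1 encodes the actin-binding protein tropomyosin 1, whose many isoforms arise from alternative promoters and alternative internal and last exons. Its gene median was 10.57 in HF, 8.62 in SG and 7.65 in IFE, and 13 of its 14 probe sets were 1 or more higher in HF. The exception read 7.24, 7.17 and 6.58 in HF, 7.26, 7.29 and 7.32 in SG, and 7.65, 7.22 and 7.47 in IFE. At the opposite end, a probe set with a higher index read 10.86, 10.65 and 10.97 in HF, 7.22, 7.44 and 8.45 in SG, and 4.77, 2.31 and 4.66 in IFE. This last probe set fell from 10.83 in HF through 7.70 in SG to 3.91 in IFE with no overlap of groups.

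Fhod3, a formin gene whose product assembles actin filaments, had the most members, 1 higher and 4 lower among 30 probe sets. Its gene median was 9.15 in HF, 7.30 in SG and 7.53 in IFE, and 22 probe sets were 1 or more higher in HF. Of the lower members, the top-ranked read 7.67, 7.61 and 7.74 in HF, 7.61, 7.55 and 7.53 in SG, and 7.53, 7.56 and 7.62 in IFE, with all 9 arrays close together. Nav2, a gene of neuron navigation also expressed in epithelia, had 3 higher members and 1 lower among 44 probe sets, 38 of which were 1 or more higher in HF. Its top-ranked higher member read 9.16, 8.42 and 9.18 in HF, 4.77, 3.09 and 7.38 in SG, and 3.69, 5.88 and 6.20 in IFE. Its lower member stayed between 7.24 and 7.66 on all 9 arrays. Uaca, the gene of a coiled-coil and ankyrin repeat protein, and Capn12, a calpain protease gene, had 1 higher and 2 lower members each, with 22 of 25 and 15 of 22 probe sets 1 or more higher in HF. Nkd2, an inhibitor of Wnt signalling, and Csdc2, an RNA-binding gene, also had members of both directions in genes that were brighter in HF, with gene medians of 9.47 and 8.97 in HF, 7.62 and 7.10 in SG and 7.62 and 7.29 in IFE.

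Mtus1 and Pdlim7 differed from these in that most of the gene was flat. Mtus1, which encodes a microtubule-associated protein with several alternative first exons, had 17 of 23 probe sets within 0.5 between HF and the mean of the others, 3 lower by 1 or more, and none higher by 1 or more. Its lower members read 7.22, 7.76 and 8.06 in HF against 9.03 to 9.38 elsewhere, and 7.80, 8.63 and 8.30 in HF against 9.42 to 10.24 elsewhere. Its higher members read 8.16, 7.96 and 8.07 against 7.06 to 7.65, and 5.16, 5.87 and 6.28 against 3.90 to 5.60, the last with overlap between groups in log2 signal. Pdlim7, a gene of a PDZ and LIM domain protein on actin fibres, had 3 higher members and 9 of 15 probe sets within 0.5. The 3 read 7.45 to 7.85, 9.18 to 9.70 and 7.55 to 7.84 in HF, and at most 6.08, 7.81 and 6.52 on any other array, while the gene median was 7.96, 7.62 and 7.47.

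**Figure D4:**
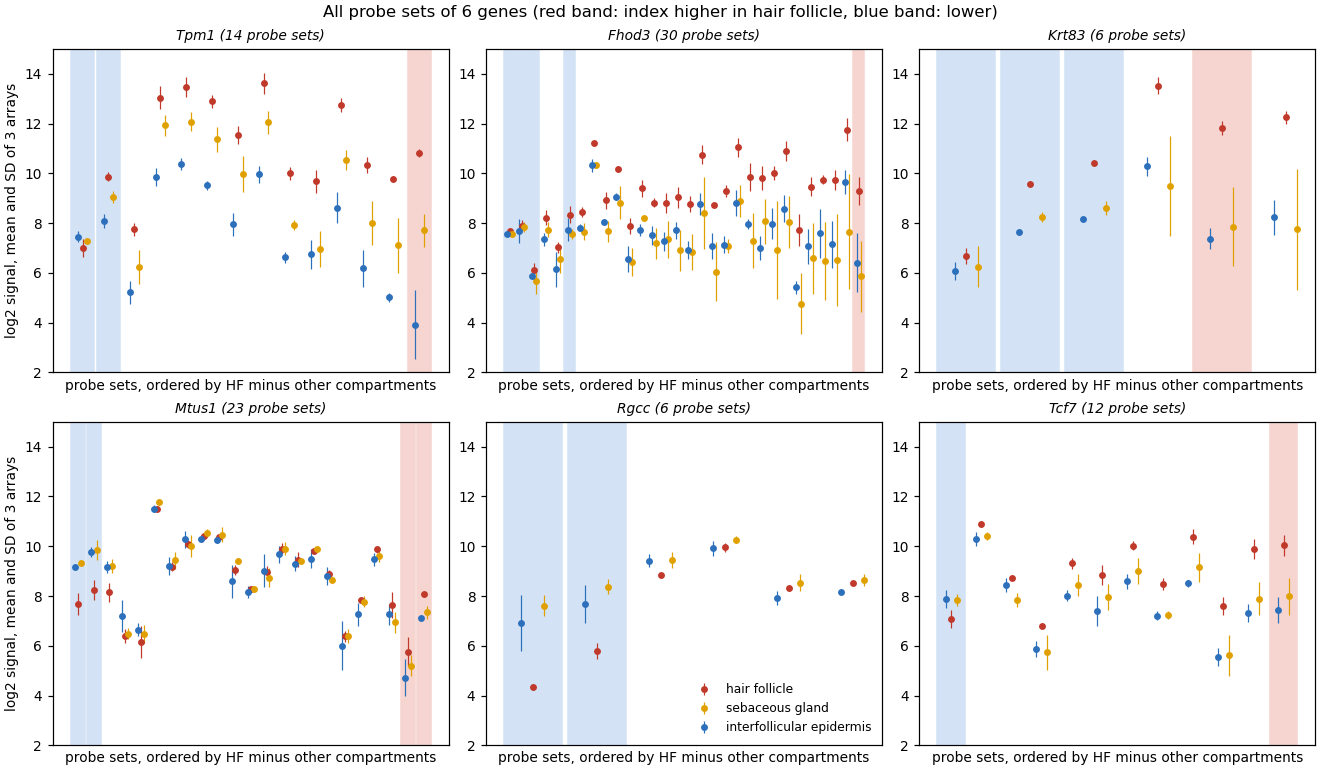
Log2 signal (mean and SD of 3 arrays) of every probe set of 6 genes in hair follicle, sebaceous gland and interfollicular epidermis, ordered by the difference of HF from the mean of the others. Bands mark members with a higher (red) or lower (blue) index in HF. In Tpm1, Fhod3, Krt83 and Tcf7 most probe sets rise in HF and the blue ones rise less or not at all, whereas in Mtus1 and Rgcc most probe sets coincide and only the outermost part.

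Krt83 encodes a hair shaft keratin and is a marker of the hair shaft list, and its gene median was 11.12 in HF against 8.21 in SG and 7.82 in IFE. With 4 of its 6 probe sets selected, 3 lower and 1 higher, its index describes the spread of a strongly changed gene. The lowest read 6.89, 6.83 and 6.32 in HF, 5.39, 7.02 and 6.32 in SG, and 6.27, 5.64 and 6.26 in IFE. Krt83 has near-identical hair keratin paralogs, so how far its probe sets read this gene alone is uncertain.

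Tcf7, a transcription factor of the TCF/LEF family through which Wnt signals act, had members of both directions among 12 probe sets, and 9 of them were 1 or more higher in HF. Its gene median was 9.13 in HF, 8.09 in SG and 7.79 in IFE. The lower member read 6.67, 7.24 and 7.34 in HF, 7.87, 8.04 and 7.58 in SG, and 8.28, 7.71 and 7.65 in IFE. It was the only probe set of the gene to be lower in HF than in both other compartments, and its HF arrays were the lowest of the 9. The higher member read 10.08, 9.59 and 10.43 in HF, 7.17, 8.17 and 8.61 in SG, and 7.16, 7.11 and 8.05 in IFE. Short forms of this protein that lack the beta-catenin binding part are known to start from an internal promoter. The deposited table gives no exon position, so whether the low probe set reads the start of the long form is unknown here.

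Because Tcf7 and Nav2 each have more than 1 annotated start, the promoter windows of both are shown, from 250 bases before to 50 bases after each start, credited to RefSeq on GRCm38.p6. The windows were searched on both strands for the TCF/LEF core CTTTGA or CTTTGT, and a match is in capitals.
Tcf7 start at chr11:52282965-52283264, minus strand: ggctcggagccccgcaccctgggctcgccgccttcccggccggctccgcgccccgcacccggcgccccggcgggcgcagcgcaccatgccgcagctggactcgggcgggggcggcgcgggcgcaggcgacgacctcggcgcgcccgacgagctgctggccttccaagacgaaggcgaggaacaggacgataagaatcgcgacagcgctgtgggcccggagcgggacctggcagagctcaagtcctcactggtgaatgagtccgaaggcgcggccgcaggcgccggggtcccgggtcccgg
Tcf7 start at chr11:52282546-52282845, minus strand: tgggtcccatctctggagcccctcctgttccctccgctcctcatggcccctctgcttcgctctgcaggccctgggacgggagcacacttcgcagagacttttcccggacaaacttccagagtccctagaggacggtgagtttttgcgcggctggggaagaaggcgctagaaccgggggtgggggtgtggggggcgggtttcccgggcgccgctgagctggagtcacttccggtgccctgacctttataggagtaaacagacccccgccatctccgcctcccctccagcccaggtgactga
Nav2 start at chr7:48958823-48959122, plus strand: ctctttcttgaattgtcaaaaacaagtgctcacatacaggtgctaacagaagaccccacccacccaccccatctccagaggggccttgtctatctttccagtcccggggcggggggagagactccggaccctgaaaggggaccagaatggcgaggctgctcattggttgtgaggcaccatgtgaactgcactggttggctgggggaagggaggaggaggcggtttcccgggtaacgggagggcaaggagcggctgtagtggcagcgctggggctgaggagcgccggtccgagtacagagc
Nav2 start at chr7:49245939-49246238, plus strand: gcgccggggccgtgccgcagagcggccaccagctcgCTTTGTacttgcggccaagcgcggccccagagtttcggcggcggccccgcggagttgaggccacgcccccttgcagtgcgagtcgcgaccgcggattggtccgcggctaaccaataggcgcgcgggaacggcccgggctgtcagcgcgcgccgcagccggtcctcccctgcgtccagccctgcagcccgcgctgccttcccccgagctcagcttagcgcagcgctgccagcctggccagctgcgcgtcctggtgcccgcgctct
Of these 4 windows only the last Nav2 window held the letters, in 1 place, and 31.2% of the 32851 promoter windows of 300 bases in the table hold them at least once. Of the 219 member genes, 173 were matched in the promoter table by symbol and 42 of those had 2 or more starts there. The submitters' notes name another build, mm9, and no member probe set was placed on these windows.

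A gene with more annotated transcripts has more exons that can differ. Of the member genes 123 of 219 (56.2%) had 2 or more curated RefSeq transcripts, against 3228 of 6002 genes left by the gene filters (53.8%), a difference that was not tested. The share was 58.8% for genes with higher members, 50.7% for genes with lower members and 61.8% for the 34 genes with several. Of 42 genes with known epithelial splice forms that could have been selected, 3 (7.14%) held a member, against 219 of 6016 (3.64%). These were Dst, Tpm1 and Actn1. Dst, the gene of dystonin, which has epithelial, neuronal and muscle forms and anchors keratins at hemidesmosomes, had 1 lower member among 104 probe sets, at 8.19, 8.75 and 7.96 in HF, 9.86, 9.67 and 9.58 in SG, and 9.47, 10.77 and 10.67 in IFE. The HF arrays were lowest, and the gene median was 7.53, 7.75 and 8.03. A gene with more probe sets has more chances to hold a member. The median gene left by the filters had 12 probe sets, and the shares per list take no account of this.

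Actn1 encodes the actin crosslinker alpha-actinin 1. Its gene median was 9.96 in HF, 8.80 in SG and 7.24 in IFE, and its lower member stayed dim at 5.03, 5.39 and 5.52 in HF, 6.25, 4.66 and 5.89 in SG, and 4.33, 3.99 and 4.62 in IFE. Over the adhesion, junction and cytoskeleton list 5 of 53 genes (9.43%) held a member: Dsg2, Dst, Actn1, Add3 and Tpm1. Add3, which encodes gamma-adducin, had 2 higher members, the brighter at 10.92, 10.67 and 10.73 in HF, 10.24, 10.40 and 10.38 in SG, and 10.34, 9.86 and 10.02 in IFE. Its gene median fell the other way, at 7.31 in HF, 8.12 in SG and 7.94 in IFE.

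Of 41 follicle transcription and signalling genes that could be selected, 2 (4.88%) held a member, Tcf7 and Fgfr1. Fgfr1, a fibroblast growth factor receptor gene known for mutually exclusive ligand-binding exons, had 2 higher members among 21 probe sets. One read 8.87, 8.78 and 8.89 in HF, 7.23, 8.36 and 7.94 in SG, and 5.85, 6.47 and 5.93 in IFE. The other read 8.03, 8.06 and 7.77 in HF, 7.18, 5.81 and 7.68 in SG, and 6.28, 4.98 and 6.78 in IFE. Both were highest on all HF arrays, with SG between HF and IFE. These counts per list are small and are given without a test, beside the 3.64% of all genes. The splice form and adhesion lists share Dst, Tpm1 and Actn1, and no share was adjusted for the number of probe sets per gene.

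A list of splicing regulators was examined as genes. None of the 41 on the list that could have been selected held a member. Splicing factors outside the list did: Sfswap, Sf3b2 and Zrsr2, named after their values were seen, each held 1 higher member. These members belong to the core selected again whichever array was left out, which is no separate support. The Sfswap probe set read 10.76, 10.86 and 10.73 in HF, 9.01, 8.91 and 9.51 in SG, and 8.68, 8.48 and 8.61 in IFE, over a gene median of 8.62, 8.60 and 8.71. The levels of the listed regulators were tested within a fit over 14543 genes with limma, where a call needed a difference of log2 1 or more together with a Benjamini-Hochberg adjusted p below 0.05. Against IFE, 2 of 48 measured regulators were called, both lower in HF, where 3.36% of all genes were lower and 2.98% higher. Srpk1, a kinase of the SR splicing factors, read 8.97, 9.38 and 9.43 in HF and 10.27, 10.96 and 10.93 in IFE, a difference of -1.46 ± 0.22 (SE, limma adjusted p = 0.00122). Mbnl3, of the muscleblind family, read 7.06, 7.86 and 7.26 in HF and 8.58, 8.75 and 8.59 in IFE, a difference of -1.25 ± 0.21 (limma adjusted p = 0.00212). Neither gene's arrays overlapped between HF and IFE. In SG, Srpk1 averaged 9.42 and Mbnl3 7.72, against 9.26 and 7.39 in HF, and neither was called between HF and SG. The Mbnl3 call did not hold with the last letter of the array file name as a block (limma adjusted p = 0.0523), and the Srpk1 call did. Letters a, b and e each stood on 1 array only, HF replicate 1, SG replicate 1 and IFE replicate 3. The letter block absorbs those arrays, so any fit with it rests on the remaining arrays.

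Against SG, 2 of 48 were again called and lower in HF, where 1.82% of all genes were lower and 3.31% higher. Rbm47, an RNA-binding protein that acts in splicing and stability, read 7.15, 7.54 and 7.05 in HF and 9.09, 8.94 and 8.27 in SG, a difference of -1.52 ± 0.24 (SE, limma adjusted p = 0.00239). Khdrbs3, which encodes the STAR protein SLM2, read 6.13, 7.07 and 6.42 in HF and 7.63, 7.95 and 7.70 in SG, a difference of -1.22 ± 0.25 (limma adjusted p = 0.0101). The Khdrbs3 call was lost with the letter block (0.0529) and without HF replicate 3 (0.0539, both limma adjusted p). In IFE, Rbm47 averaged 7.15 and Khdrbs3 5.88, against 7.25 and 6.54 in HF, and neither was called between HF and IFE. No listed regulator was thus called in HF against both other compartments. Esrp1, Esrp2, Mbnl1 and Rbfox2 did not pass the bound on size in either comparison. Esrp1 differed from IFE by -0.65 (limma adjusted p = 0.0271) and Mbnl1 by -0.95 (limma adjusted p = 0.00458), and Rbfox2 by -0.04. Esrp2 differed from IFE by -0.47 (limma adjusted p = 0.0792). From SG the differences were 0.46 for Esrp1, 0.13 for Esrp2, -0.12 for Mbnl1 and 0.39 for Rbfox2. Over all 48 regulators the median difference from IFE was -0.33, against -0.07 for all genes, and from SG 0.05 against 0.02. These medians depended on the scaling: quantile normalization gave -0.11 from IFE (all genes 0.01) and -0.09 from SG (all genes -0.12), and median centring gave -0.23 (0.03) and -0.09 (-0.12).

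SG and IFE were also compared with each other, in a fit whose spread is estimated from all 9 arrays, HF included. Their indices, which the selection also used, were compared with limma over all 89440 probe sets, of which 1.86% were called higher in SG and 0.983% lower. Of the 269 members 8 were called (2.97%, against 2.84% of all), 7 higher in SG and 1 lower, and 41 had an unadjusted p under 0.05. A share near the background says nothing particular of the members, and the selection also favours probe sets on which SG and IFE agree. All 8 were among the higher members, and no lower member was called (9 at an unadjusted p under 0.05, limma). The largest was the Tpm1 probe set with the graded pattern above, with a mean index of -0.92 in SG and -3.74 in IFE, a difference of 2.82 ± 0.51 (SE, limma adjusted p = 0.0182). The kinesin gene Kif1c, named after its values were seen, followed with 1.51 ± 0.25 (limma adjusted p = 0.0142) and read 13.02, 12.45 and 12.97 in HF, 11.18, 11.32 and 11.74 in SG, and 10.55, 10.66 and 10.77 in IFE. In both, the SG index stood between HF and IFE. That order is fixed in advance for any higher member called higher in SG than in IFE, so nothing is read from it. No member was called with the letter block, a fit that called 0% of all probe sets. None was called without IFE replicate 3 (0.57% of all probe sets), and 1 when the fit held only SG and IFE arrays (0.74%). Without HF replicates 1, 2 and 3 in turn 5, 5 and 2 were called (2.03%, 2.23% and 1.87% of all probe sets). Without SG replicate 3, 11 were called, 5 higher in SG and 6 lower (4.41% of all). The split of 7 higher and 1 lower thus depended on that array.

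The genes that hold members were also compared between SG and IFE as a whole. Of 219 genes 17 were called by limma (7.76%), 4 higher in SG and 13 lower, where 2.55% of all 14543 genes were higher and 6.97% lower. Among the genes described above, Actn1 was higher in SG by 1.56 ± 0.26 (limma adjusted p = 0.00139) and Fgfr1 by 1.06 ± 0.18 (limma adjusted p = 0.00155). Dlg2 was lower in SG by -1.75 ± 0.29 (limma adjusted p = 0.00137). For these genes the SG and IFE references that the index subtracts differed, whereas most member genes stayed near one another: the median absolute SG and IFE difference was 0.30 over member genes and 0.33 over all genes. The letter block turned the split of the 17 calls to 8 higher and 9 lower, quantile normalization gave 9 and 5, and centring each array on its median gave 7 and 6. Those scalings moved the median difference of all genes from -0.06 to 0.16 and 0.18.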

How the data were processed

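Tail epidermis was dissected by hand into SG, HF and IFE pools, and the RNA was amplified, labelled and hybridised to exon arrays, per the labels' protocols. RMA, Affymetrix Power Tools and mm9 are given in the submitters' processing notes, with no versions or order. The authors deposited a linear-scale intensity for every probe set on every array, although RMA usually ends in log2. No detection calls were used, so signal over background is unknown, and 3 arrays per compartment limit the precision.

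The log2 of each deposited intensity was taken without normalizing again. Names were taken from the array's platform annotation (146964 probe sets with 1 symbol, 1060 with several, 6712 with none), and 1712 of 14543 symbols were updated for display through RefSeq genes on GRCm38. Symbols that an update would have merged were kept apart. A gene's level was the median log2 of its probe sets. Index and gene level were tested with limma 3.58.1 in R 4.3.3 over all probe sets or genes and all 9 arrays, with Benjamini-Hochberg adjustment, and the fits were tested on simulated data. Calls needed a log2 difference of 1 or more with an adjusted p below 0.05.

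The members and gene lists were chosen with earlier results of these data known. Named were 15 members per direction with the largest smaller difference, up to 15 genes with several members, listed genes and those nearest the bound. Exon positions were not analysed here.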

Additional observations from a re-analysis of the deposited data

How the results depend on the processing

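The number of members, 269, depended on the bounds: 558 at a difference of 0.75, 75 at 1.5, 605 with gene medians of log2 6 or more and 57 with 8 or more. It was 468 without HF replicate 2, 524 without HF replicate 2 and SG replicate 3 together, and 275 to 468 when each array was left out in turn. Quantile normalization gave 267, of which 230 were among the 269, and symbols updated before grouping, an alternative added after seeing the data, gave 268. For 106 members, the top-ranked and those in genes with several, 1117 alternative values of the difference were computed. Of these, 1115 moved by less than the spread between replicates and none changed sign. Where 1 array was left out, both outcomes were fixed in advance. A mean of 3 arrays then moves by less than their SD, and the selection had already separated the groups. The 2 that moved further came from taking the median of the other probe sets as the reference. Of the 1117 values, 83, of 40 members, fell under 1. Another 49 had no value because the gene no longer passed the filters, most often without SG replicate 3, where 88 members kept one. The 8 members called between SG and IFE became 0 with the array letter block, 1 with only the groups compared and 0 to 11 when each array was left out, with 0 without IFE replicate 3. Of all probe sets 2.84% were called in the main fit. That share was 0% with the letter block, 0.74% with only the groups compared and 0.57% without IFE replicate 3. The 17 member genes called between SG and IFE ranged from 14 to 20 when each array was left out. The splicing regulators called became 1 against IFE and 1 against SG with the letter block, 1 against SG without the dimmer 50%, and ranged from 2 to 4 against IFE and from 1 to 2 against SG when each array was left out; the causes were not tested. With the replicate number as a block the counts were 8, 17, 2 and 2. Same-numbered arrays deviated together only weakly, with correlations from -0.018 to 0.225, against -0.154 to 0.111 for arrays of different number. Whether the numbers pair the samples is unknown, since the labels do not say and these correlations cannot decide it. The index of 47 probe sets is 0 on every array because each is its gene's median. Dim genes limit the index: 14.9% of the probe sets lay in genes below the array medians in all compartments, including 37 higher and 10 lower members.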
